A study of Mus musculus with 8 samples.

Results

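Naive pluripotency transcription factors are DNA-binding proteins and their partners that mouse embryonic stem cells express while they resemble the inner cell mass of the embryo before implantation. The set followed here holds 10 genes, Klf2, Klf4, Klf5, Esrrb, Zfp42, Tfcp2l1, Nr0b1, Tbx3, Prdm14 and Gbx2. Its measurements are every non-control array probe that the feature tables name by one of these symbols or by an older synonym. This gave 18 probes of 9 genes among 41174 non-control probes, and 17 of the 18 were tested among 25673 tested probes. No probe carried the name Prdm14 or a synonym of it, so Prdm14 was not analysed here. A further 2 probes of Cklf, a chemokine-like factor, share a spelling with an old name of Klf5 but belong to another gene and were left out.

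The cells were R1, a line of mouse embryonic stem cells, grown on gelatin in a medium with serum replacer. In 4 samples they were kept in leukaemia inhibitory factor (LIF) without feeder cells, and in 4 samples they were kept in 0.2 mM sodium butyrate, a histone deacetylase inhibitor, without LIF for 15 passages. No sample had LIF together with butyrate, or neither of them. The loss of LIF and the addition of butyrate therefore cannot be told apart in any ratio below. Each of 4 2-colour arrays on 1 slide paired a butyrate sample in Cy5 with the LIF sample of its number in Cy3, so the treatment cannot be told apart from the dye, and any dye bias of a probe remains in its ratio. The replicates are labelled as independent but no separate derivation is named, so the spread behind each p-value, that between these samples, may be technical. Precision is limited by the number of arrays. The study used 1 cell line and bulk RNA, in which fewer cells of a type and less RNA per cell cannot be told apart.

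In these cells LIF binds the receptor pair of Lifr and Il6st, and Jak kinases then activate the transcription factor Stat3. Klf4, Tfcp2l1 and Gbx2 are known targets of Stat3. Esrrb is held down by Tcf7l1 and is released when Gsk3 is inhibited, Tbx3 responds to PI3 kinase signalling, and Klf2 and Klf5 overlap with Klf4 in their targets. The factors bind one another's genes and those of Pou5f1, Sox2 and Nanog, and the naive state is left when they are switched off.

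Values are log2 ratios of butyrate over LIF after loess normalization, as mean ± SD over n = 4 arrays, and a probe passed at a Benjamini-Hochberg adjusted p under 0.05 in limma's test over all tested probes. Of the 17 tested probes, 14 were lower in butyrate, 2 were higher and 1 did not pass. Over all tested probes 32.5% were called lower and 39.7% higher. A fall of at least 2-fold was called for 6 of the 17 probes (35.3%), against 1.61% of all tested probes, and a rise of that size for 0 of the 17, against 4.09%. One of the Klf2 probes had saturated spots, and without it 13 of 16 probes were lower and 2 higher. The median log2 ratio was -0.53 over the 17 and -0.50 over the 16, beside 0.03 over all tested probes. With 1 probe for each gene (the brightest that was not saturated, a choice made after the saturation marks were seen), 8 of 9 genes were lower and Tbx3 was higher, beside 34.5% lower and 42.6% higher among 14512 genes by their brightest probe. A gene was lower by at least 2-fold in 5 of 9 cases, beside 2.21% of those genes. Both counts of 2-fold falls hold with loess. With median centring the brighter Esrrb probe (-0.999) and Klf4 (-0.86) fell short of 2-fold. The filter asked for signal well above background, by the scanner's own mark, in either group, and 14 of the 18 probes had it in both groups on every array. Of those 14, 13 were lower and 1 was higher. The LIF and butyrate levels did not overlap for 12 lower (11 without the saturated probe) and 2 higher probes, beside 28.5% and 36.7% of all tested probes. These counts include the dimmest Tfcp2l1 probe among the lower and the dimmer Tbx3 probe among the higher. Both passed the filter only through the group where they were higher, so their lack of overlap adds no support.

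**Figure D1:**
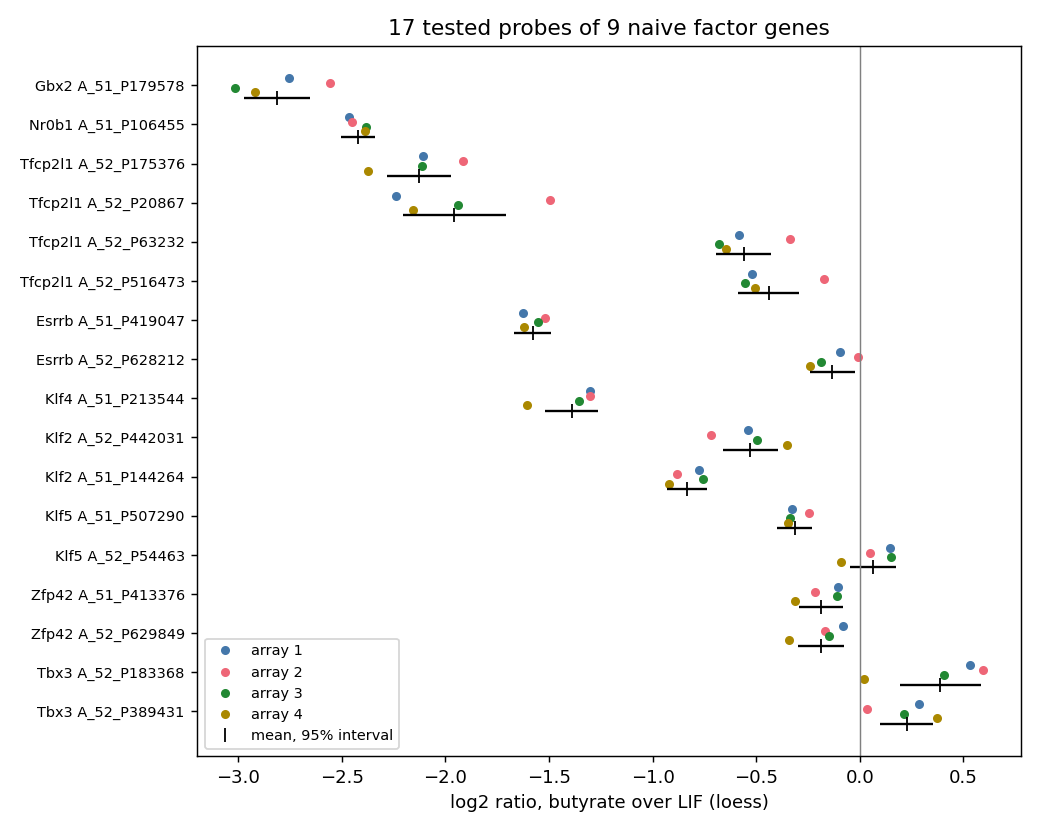
Log2 ratio of butyrate over LIF after loess (x axis) for the 17 tested probes (y axis), with a coloured point for each of 4 arrays and a black bar for the mean and its 95% interval from limma. Gbx2, Nr0b1, the 2 brighter Tfcp2l1 probes, the brighter Esrrb probe and Klf4 lie at -1.30 or below on every array, while the brighter Klf5 probe and both Zfp42 probes lie between -0.35 and -0.08, and turn to the other sign where arrays are centred on their median without loess.

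Gbx2, a homeobox factor that lies downstream of LIF and Stat3, had the lowest ratio of the set. Its log2 level in LIF was 11.03, 10.71, 10.88 and 10.87 on arrays 1 to 4, and in butyrate it was 8.27, 8.15, 7.86 and 7.95. The lowest LIF sample lay above the highest butyrate sample by more than the range within either group. The ratio was -2.81 ± 0.20, a 7.03-fold fall (95% interval of the log2 ratio -2.97 to -2.65, limma adjusted p = 2.28e-08), and 0.0273% of tested probes had a lower one. The other Gbx2 probe stayed below that detection mark in both groups on 4 of 4 arrays and was not tested.

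Tfcp2l1, a grainyhead-like factor and Stat3 target, has 4 probes, listed on the array under its older name Tcfcp2l1. The brightest of them, A_52_P175376, read 11.69, 11.62, 11.73 and 11.88 in LIF and 9.59, 9.70, 9.61 and 9.51 in butyrate. The groups did not overlap, and the ratio of -2.13 ± 0.19 was a 4.37-fold fall (limma adjusted p = 6.47e-08). The next probe, A_52_P20867, gave -2.24, -1.49, -1.94 and -2.16 on the 4 arrays, a 3.88-fold fall (-1.96 ± 0.33, limma adjusted p = 9.78e-07). The remaining probes gave smaller ratios, -0.56 ± 0.15 and -0.44 ± 0.18, both of which passed. Differences between a bright and a dim probe ran from 1.40 to 1.69 and had the same sign on 4 of 4 arrays (exact sign-flip permutation test, two-sided p = 0.125, the smallest that 4 arrays allow, and 0.172 after adjustment over 11 probe pairs of the members). The offset of 50 added to the signals understates the fold of dim probes. The test therefore cannot tell a difference between probes from an effect of the processing. In the scanner software's own log ratio, which has no added offset, the 3 brighter probes read -2.35, -2.88 and -1.97, and the dimmest read -3.65. The dimmest, A_52_P516473, was not well above background in butyrate on any array, so it passed the filter through LIF alone, and its fold is a bound of at least 1.36-fold.

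Klf4, a zinc-finger factor and one of the reprogramming factors, had 1 probe. It read 13.92, 13.82, 13.91 and 14.05 in LIF and 12.62, 12.52, 12.56 and 12.45 in butyrate, with a wide gap between the groups. The ratio was -1.39 ± 0.15, a 2.62-fold fall (limma adjusted p = 2.04e-07).

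Esrrb, an orphan nuclear receptor that works with Nanog, read 12.39, 12.47, 12.41 and 12.41 in LIF and 10.76, 10.95, 10.86 and 10.79 in butyrate on its brighter probe. The 4 ratios lay between -1.63 and -1.52, which is a 2.99-fold fall (-1.58 ± 0.05, limma adjusted p = 1.93e-08). The dimmer Esrrb probe, built on another transcript record, gave -0.13 ± 0.10 (limma adjusted p = 0.0317), with overlapping groups. That call is lost without replicate 1, 3 or 4 (limma adjusted p = 0.0607, 0.129 and 0.123). It is also lost with median centring (-0.18, limma adjusted p = 0.0788). The same probe read -0.81 in the scanner's own log ratio (limma adjusted p = 0.000345). In the authors' value table it read -0.88 (limma adjusted p = 2e-04), so its size depended on the processing.

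Nr0b1 (Dax1), an orphan receptor that lacks the usual zinc-finger DNA-binding domain and binds other pluripotency factors, had the smallest SD of the ratio among the 17 probes. Its level was 12.51, 12.61, 12.56 and 12.41 in LIF and 10.05, 10.16, 10.17 and 10.02 in butyrate. The ratios on the 4 arrays ran only from -2.47 to -2.39, a 5.36-fold fall (-2.42 ± 0.04, limma adjusted p = 5.67e-09).

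Klf2 and Klf5 had ratios nearer to 0 than their relative Klf4 on every array. Klf2 read 14.94, 15.04, 15.09 and 15.11 in LIF and 14.17, 14.16, 14.33 and 14.19 in butyrate, and the groups did not overlap. Its ratio was -0.83 ± 0.08, a 1.78-fold fall with loess (limma adjusted p = 6.07e-07), while with median centring it read -0.36 and did not pass (limma adjusted p = 0.0641). The other Klf2 probe was saturated on 3 LIF arrays and on 4 butyrate arrays, so that its ratio of -0.53 ± 0.15 is that of capped spots and no fold is given.

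Klf5 read 11.71, 11.62, 11.75 and 11.65 in LIF and 11.39, 11.37, 11.41 and 11.30 in butyrate. Its 4 ratios ran from -0.35 to -0.25, a 1.24-fold fall with loess (-0.31 ± 0.05, limma adjusted p = 8.7e-05). The dimmer Klf5 probe, well above background on 2 of 4 LIF arrays, gave 0.07 ± 0.11 and did not pass (limma adjusted p = 0.255). The 2 Klf5 probes differed by 0.38 in the same direction on 4 of 4 arrays (exact sign-flip permutation test, two-sided p = 0.125).

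Zfp42 (Rex1), a zinc-finger protein used as a reporter of the naive state, was close to its LIF level. On the first of its 2 probes the LIF samples read 15.12, 15.29, 15.26 and 15.26 and the butyrate samples 15.01, 15.07, 15.15 and 14.95, and the groups overlapped. The ratio was -0.19 ± 0.10, 1.14-fold lower (limma adjusted p = 0.00592). The second probe gave the same mean, -0.19 ± 0.11 (limma adjusted p = 0.00781), and its groups did not overlap. The 95% interval of that log2 ratio was -0.30 to -0.08, and both probes change sign with median centring, at 0.27 and 0.29.

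Tbx3, a T-box repressor linked to PI3 kinase signalling, was the 1 gene of the set that rose. Its brighter probe read 11.39, 11.37, 11.54 and 11.82 in LIF and 11.92, 11.96, 11.95 and 11.84 in butyrate. The butyrate samples lay close together while the LIF samples spread, and array 4 showed almost no difference. The ratios 0.53, 0.60, 0.41 and 0.02 gave 0.39 ± 0.26, 1.31-fold higher (limma adjusted p = 0.00338), and 0.51 without replicate 4. The dimmer Tbx3 probe was well above background in butyrate on 4 arrays and in LIF on 0, so it passed the filter through butyrate alone and adds no support of its own. It gave 0.23 ± 0.14 (limma adjusted p = 0.00596), at least 1.15-fold higher, and with median centring it read 0.05 and did not pass (limma adjusted p = 0.697). In the scanner's own log ratio it read 2.51 (limma adjusted p = 6.52e-05). The authors' value table gave 2.54 (limma adjusted p = 1.75e-05), so the size of its rise depended on the processing.

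**Figure D2:**
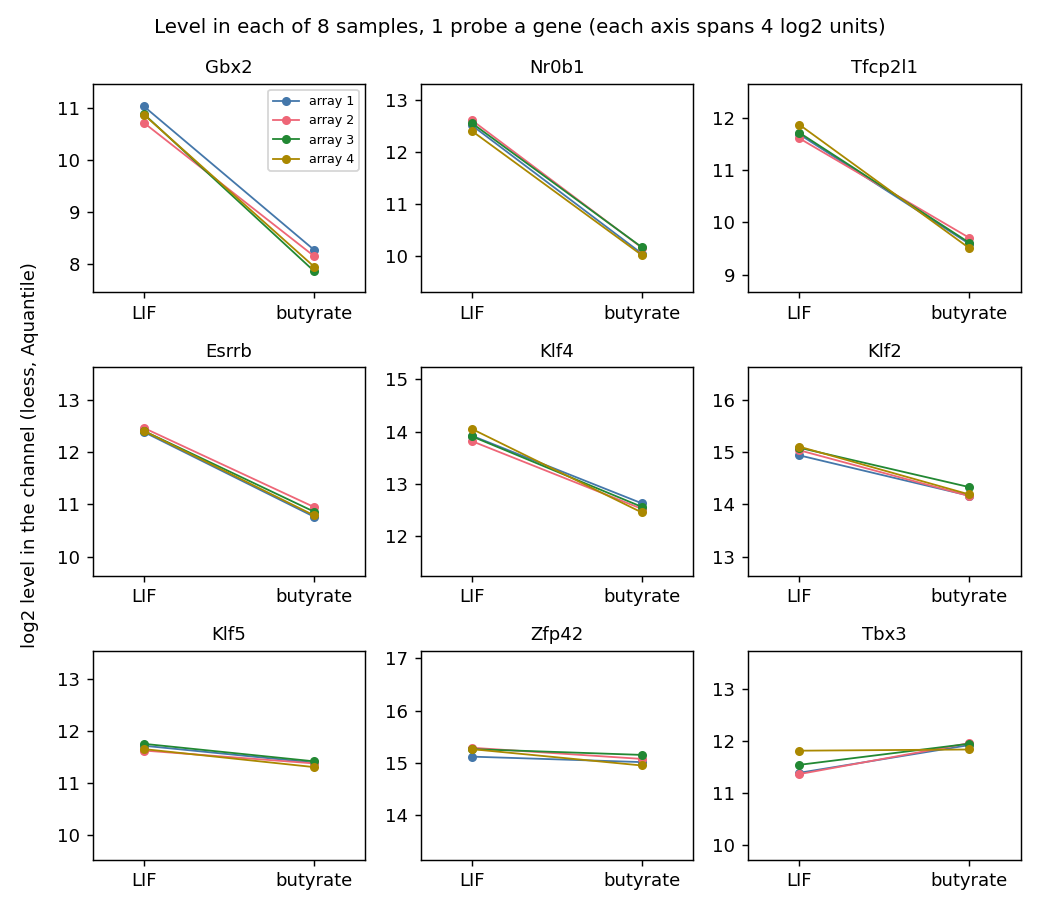
Log2 level in the LIF and butyrate channels (loess, then Aquantile; y axis) of 1 probe a gene, with 1 line for each of 4 arrays and each axis spanning the same width. The lines fall steeply for Gbx2, Nr0b1, Tfcp2l1, Esrrb and Klf4, are nearly flat for Zfp42, and rise for Tbx3 on arrays 1 to 3.

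From the lowest ratio to the highest the genes were ordered Gbx2, Nr0b1, Tfcp2l1, Esrrb, Klf4, Klf2, Klf5, Zfp42 and Tbx3. The ratios of neighbours did not overlap between arrays except for Esrrb with Klf4, which differed by 0.19 ± 0.13, and Klf5 with Zfp42, which differed by 0.13 ± 0.11. Each of the 8 neighbour differences had the same sign on 4 of 4 arrays, which for 4 arrays can reach no lower than p = 0.125 (exact sign-flip permutation test, two-sided, also 0.125 after adjustment over the 8). The genes were sorted by the means of these same ratios, so the direction of each difference was set beforehand. The test therefore gives no support for the order. The order also rests on 1 probe a gene, and the dimmest Esrrb and Tfcp2l1 probes had smaller falls with loess.

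The promoters of these genes were read from RefSeq (GRCm38.p6), 250 bases before a listed transcript start, 8 windows for 7 of the 10 genes. The Tfcp2l1 window overlaps the first bases of the annotated gene, which begins at position 118627923. Klf5, Tbx3 and Prdm14 had no entry. Sequences are printed for Gbx2 and Tfcp2l1, the largest falls among the known Stat3 targets, for Esrrb, the only one with a STAT match, and for Zfp42, the least changed of the lower genes. Capitals mark matches on either strand to the Klf-type motif CCNCNCCC, to the STAT motif TTCNNNGAA or to the Esrrb motif AAGGTCA. The windows lie at chr1:89931177-89931426 (minus strand), chr1:118627695-118627944 (plus), chr12:86360867-86361116 (plus) and chr8:43307010-43307259 (minus).
Gbx2: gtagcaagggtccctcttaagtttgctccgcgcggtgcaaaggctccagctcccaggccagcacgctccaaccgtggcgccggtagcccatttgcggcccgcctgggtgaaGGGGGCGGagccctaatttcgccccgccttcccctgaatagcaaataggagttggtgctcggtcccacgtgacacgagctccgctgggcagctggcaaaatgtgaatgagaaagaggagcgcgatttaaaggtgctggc
Tfcp2l1: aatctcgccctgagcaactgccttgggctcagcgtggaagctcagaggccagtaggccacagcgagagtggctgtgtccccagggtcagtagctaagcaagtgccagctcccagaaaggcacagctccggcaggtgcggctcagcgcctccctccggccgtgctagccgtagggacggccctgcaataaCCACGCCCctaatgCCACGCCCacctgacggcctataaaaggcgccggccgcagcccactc
Esrrb: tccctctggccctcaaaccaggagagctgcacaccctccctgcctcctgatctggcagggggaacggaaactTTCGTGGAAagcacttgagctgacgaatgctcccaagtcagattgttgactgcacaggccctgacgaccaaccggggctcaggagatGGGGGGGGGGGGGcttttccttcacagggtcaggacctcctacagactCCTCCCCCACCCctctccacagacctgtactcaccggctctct
Zfp42: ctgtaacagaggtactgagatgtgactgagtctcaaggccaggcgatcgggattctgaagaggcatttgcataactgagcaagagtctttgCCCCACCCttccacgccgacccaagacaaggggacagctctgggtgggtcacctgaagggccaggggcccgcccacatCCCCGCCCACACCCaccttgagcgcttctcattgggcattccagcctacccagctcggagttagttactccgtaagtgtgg

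The Klf-type motif, which Klf4 and its relatives bind and which other GC-rich binders share, was in 7 of the 8 windows (Esrrb, Gbx2, Klf2, Klf4, Tfcp2l1 and Zfp42), beside 45.9% of the 32851 windows of all genes. Matches overlap one another in Esrrb, Klf2, Klf4 and Zfp42. The STAT motif was in 1 of the 8, at position -178 of the first Esrrb window, beside 7.02% of all windows. The Esrrb motif was in 0 of the 8, beside 4.08%, and a TATA box (TATAAA) was in 2 (Nr0b1 and Tfcp2l1), beside 12.4%. GC content was above the median of all windows (52.4%) in 7 of the 8, up to 74% in Klf4, and was 52% in the second Esrrb window. A CpG count above the median of 6 was found in Gbx2 (18), Tfcp2l1 (16), Klf4 (32), Klf2 (29), Nr0b1 (11) and Zfp42 (9). A match is a description of letters and says nothing on binding in these cells.

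The direction of the smaller changes turned on how the arrays were scaled. After loess the median of all tested probes was 0.03, and it was 0.37 where each array was only centred on its median. On that scale Gbx2 (-2.23), Nr0b1 (-1.84), the 4 Tfcp2l1 probes (-1.53, -1.49, -0.40 and -0.54), the brighter Esrrb probe (-0.999) and Klf4 (-0.86) still passed as lower, 8 probes in all, beside 4.85% of all tested probes called lower and 55.4% called higher. Klf2 did not pass, the brighter Klf5 probe read 0.27 (limma adjusted p = 0.167) and the 2 Zfp42 probes read 0.27 and 0.29 (limma adjusted p = 0.155 and 0.152). These signs are relative to 0, while bright probes as a whole lay above 0 on that scale. Relative to the median of tested probes of like brightness, centring put Klf2 at -0.85, Klf5 at -0.33 and Zfp42 at -0.22 and -0.205. With loess these values were -0.83, -0.33, -0.19 and -0.19. Loess itself takes out the median at each brightness, so this likeness was built in and does not settle the signs of Klf5 and Zfp42. Tbx3's brighter probe was higher on both scales, at 0.39 and 0.97. The scanner's own ratio, which had a median of -0.05 over tested probes, and the authors' value table, at -0.07, put all 9 genes on the same side of 0 as loess did. Both rest on the same scans, dye-normalized or quantile-normalized, and do not settle the signs of Klf5 and Zfp42.

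**Figure D3:**
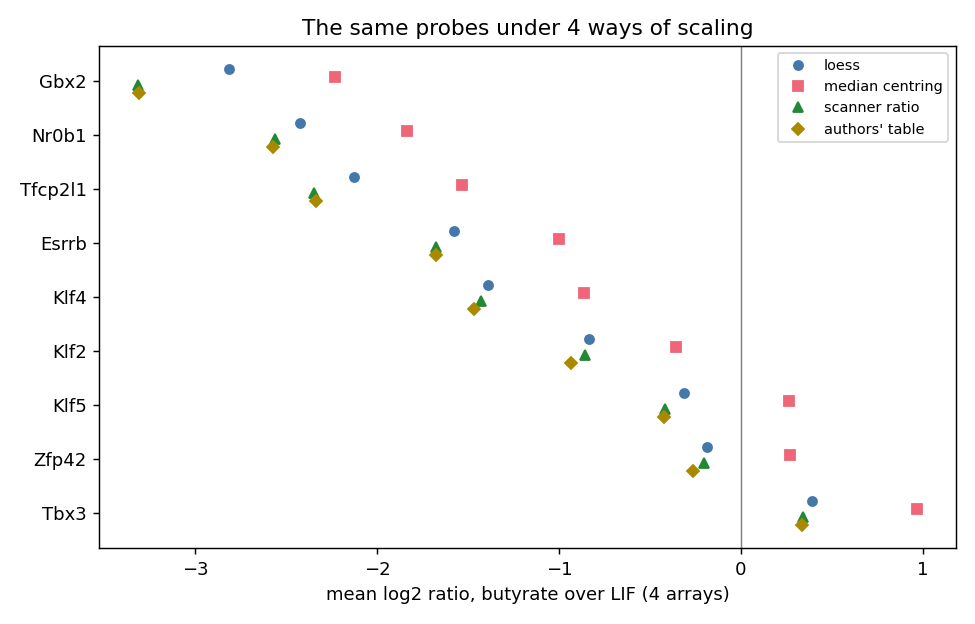
Mean log2 ratio of butyrate over LIF (x axis) of 1 probe a gene (y axis) over 4 arrays after loess, median centring, in the scanner's ratio and in the authors' value table. Gbx2, Nr0b1, Tfcp2l1, Esrrb, Klf4 and Klf2 lie left of 0 and Tbx3 right of 0 on all 4 scales, while Klf5 and Zfp42 cross 0 with median centring.

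**Figure D4:**
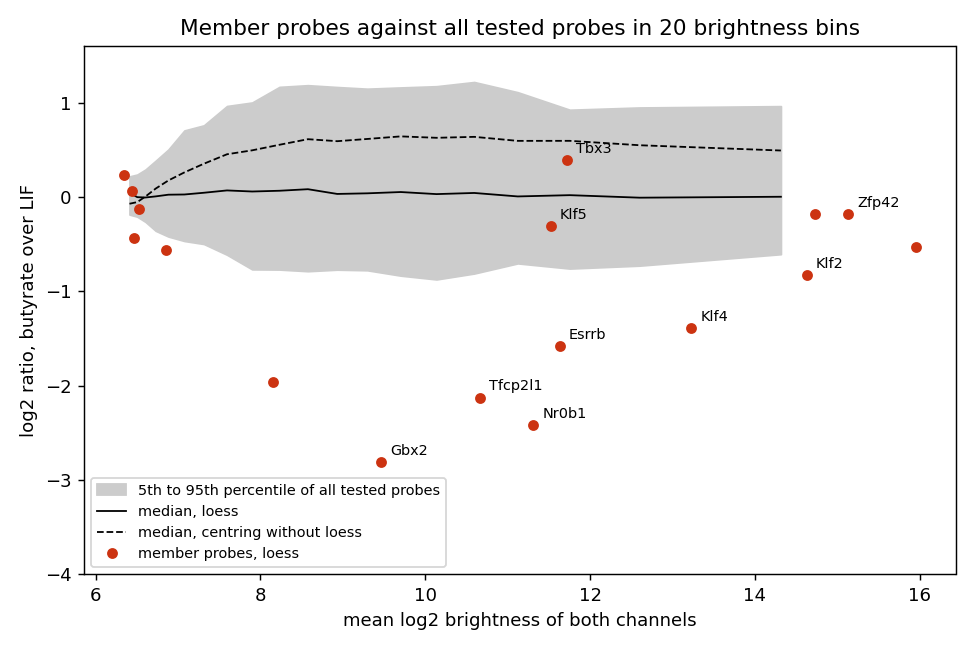
Log2 ratio (y axis) against mean log2 brightness of both channels (x axis) for the member probes (red), with the 5th to 95th percentile of all tested probes in brightness bins (grey), their median after loess (solid) and their median where arrays were only centred (dashed). The members with large falls lie below the grey band at their brightness, and the dashed line sits above 0 wherever probes are bright, which is where Klf5, Zfp42 and Klf2 lie.

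Genes of some chromosomes were shifted as a group. The median ratio of 764 tested genes of chromosome 8 was 0.29, with 77.9% of them above 0, and it was 0.21 on chromosome 11, 0.18 on chromosome 19 and 0.12 on X, beside -0.06 to 0.04 on the other chromosomes. Klf2 (chr8:72319062-72321654) and Zfp42 (chr8:43295067-43307009) lie on chromosome 8. Relative to its median, Klf2 was at -1.12, with 1.70% of its genes lower, and Zfp42 at -0.48, with 9.69% lower. Nr0b1 (chrX:86191775-86195947) was at -2.54 from the median of X. What part the chromosome shifts have in these ratios was not tested.

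**Figure D5:**
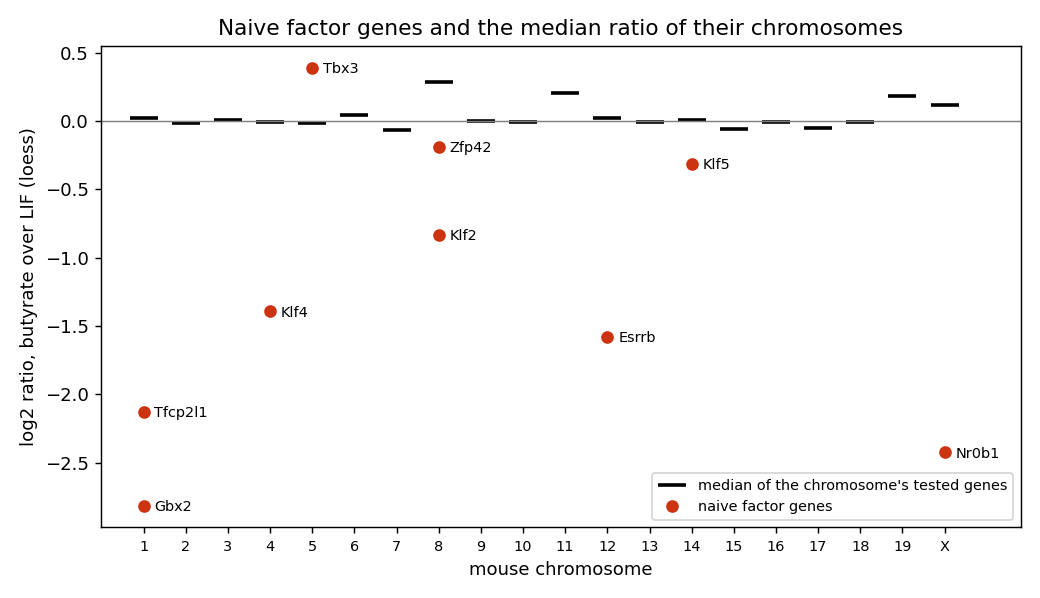
Log2 ratio of butyrate over LIF (y axis) by mouse chromosome (x axis), with a bar for the median of all tested genes of each chromosome and a red point for each of the 9 genes. Chromosome 8, which holds Klf2 and Zfp42, has the highest median, 0.29, and all of the genes but Tbx3 lie below their chromosome's median.

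Counts for the other gene lists below, by the brightest probe of each gene, stand against 34.5% of all genes called lower and 42.6% higher with loess. With median centring 4.85% of all tested probes were lower and 55.4% higher.

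The nearest paralogs of the members are other genes of the same families. Of 23 tested, 11 were lower, 7 higher and 5 did not pass (median -0.10), and with median centring 4 were lower and 8 higher. The higher genes include Prdm6, which was not well above background on any LIF array. It passed the filter through butyrate alone, so its call adds no support. Among Krüppel-like factors, Klf15 (-1.44 ± 0.14, other probe -0.82) and Klf3 (-1.15 ± 0.02, other probe -0.26) fell and Klf6 (1.22 ± 0.02, other probe 1.36) rose. Gbx1, the sister gene of Gbx2, fell by 1.66 on the log2 scale.

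In the LIF receptor and Stat3 pathway, 7 of 11 tested genes were lower and 3 higher (median -0.80), with 4 lower and 4 higher under median centring. Bcl3 (-2.40 ± 0.07), Mras (-1.83 ± 0.04, its probes from -1.91 to -0.32) and Socs3 (-1.59 ± 0.05), known products of Stat3 signalling, fell, while the kinase Jak2 rose by 1.38 ± 0.14 (its other probe 0.14). The receptor Lifr (-1.21, other probes up to -0.22) and Stat3 itself (-0.91) were chosen for mention after their values were seen, and both passed as lower with loess, while Stat3 read -0.32 with median centring (limma adjusted p = 0.136). The rest of the genes that passed, also named after their values were seen, went both ways. Junb (0.56 ± 0.08, other probe 0.70) and Jak1 (0.43 ± 0.05, other probe 0.49) rose. Pim3 (-0.80 ± 0.08) and Pim1 (-0.26 ± 0.16, other probe -0.05) were lower with loess. With median centring Pim3 read -0.25 and Pim1 0.31, and neither passed (limma adjusted p = 0.181 and 0.0847).

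Of the core factors, Pou5f1 (-1.58 ± 0.22, limma adjusted p = 4.7e-07) and Sox2 (-1.24 ± 0.09, limma adjusted p = 1.06e-07) fell. Nanog read 0.23 ± 0.05 and passed as higher, and Sall4 read 0.10 ± 0.13 (limma adjusted p = 0.1). Of 14 other naive-state genes, 11 were lower and 1, Dppa3 (0.19), was higher (median -0.89), and with median centring 6 were lower and 3 higher. Tcl1, a cofactor of Akt kinase, fell by 1.97 on the log2 scale, Spp1 (osteopontin) by 1.82 and Ooep by 1.25. Tdh, the threonine dehydrogenase, was saturated in LIF on 4 of 4 arrays and was at least 2.95-fold lower with loess. With median centring its log2 ratio was -1.12.

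Formative and primed genes, which come up as cells leave the naive state, counted 7 of 14 higher and 5 lower with loess (median 0.07) and 8 higher and 1 lower with median centring. Fgf5, the primed-state ligand, rose by 1.93 ± 0.15, Cldn6 by 0.89 and Pou3f1 by 0.88, and Foxd3 fell by 1.09 on the log2 scale. Among 11 genes of Gsk3, beta-catenin and Tcf signalling, 6 were higher and 1 lower (median 0.17), and 9 and 0 with median centring. Axin2 read 1.39, Sp5 1.17, Tcf7l2 0.73 (other probes down to 0.01) and Tcf7 0.41 (other probe 0.17). Tcf7l1, which holds Esrrb down, was chosen for mention after its value was seen. It read 0.12 ± 0.14 (other probe -0.02) and did not pass with loess (limma adjusted p = 0.077). With median centring it read 0.68 and passed as higher (limma adjusted p = 0.0116). Of 10 partners of Prdm14 and germ cell factors, 4 were lower and 4 higher (median -0.08), and 1 and 6 with median centring. Prdm1 (-0.84) fell and Suz12 (0.65) rose, while Cbfa2t2, the partner of Prdm14, at -0.67 (its 3 probes from -0.77 to 0.13) and Ezh2 at -0.57 passed as lower with loess and read -0.11 and 0.01 with median centring.

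Marker lists of other cell types differed between the groups as well. All 10 tested trophoblast markers were higher (median 2.17). Krt8 and Krt18 were saturated on 4 butyrate arrays, and the summed level of the other 8 on the linear scale was 7790 to 8587 in the LIF samples and 35311 to 39262 in the butyrate samples. Of 8 tested fibroblast markers, 7 were higher, with sums of 1936 to 2259 and 10384 to 10799. In primitive endoderm 7 of 8 and in mesoderm 4 of 6 markers were higher, and of 7 neural markers 3 were higher and 2 lower. Among 8 embryonic stem cell markers 6 were lower and 2 higher with loess, and 3 and 3 with median centring. Without Dppa5a, saturated on every array, their sums were 32552 to 34942 in LIF and 20005 to 21971 in butyrate. The trophoblast marker Elf5 and the fibroblast marker Dcn were not well above background on any LIF array. The endoderm marker Afp and the mesoderm marker Mixl1 were so on 1 LIF array each. All of these passed the filter only through butyrate, where they were higher, so their calls add no support. With median centring Afp and Mixl1 did not pass (limma adjusted p = 0.112 and 0.106). The part of other cell types in the members' ratios was not tested.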

How the data were processed

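RNA of 8 samples was measured on 4 arrays, which Agilent Feature Extraction 9.1 read, per the submitters' processing notes. Intensity columns of the deposited scans hold, for both dyes, a mean signal, a median local background and a processed signal. The log10 ratio of Cy5 over Cy3 beside them is dye-normalized after background subtraction, per the file headers. Both samples of an array share 1 deposited scan. The authors' value table holds log2 values with a median of 6.487 in every column and sorted values within 0.002 of one another, so its columns are quantile-normalized. They followed the log2 processed signal of their own channel (correlation of 0.9996 or more). Its software was not given in the sources used here.

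Background correction (normexp, offset 50, which understates the fold of dim probes) and loess within arrays, where control and outlier spots had weight 0, were run in limma 3.58.1 (R 4.3.3). Spots of a probe were averaged. Tested probes were well above background on at least 3 of 4 arrays in either channel. The median signal was 62.8 to 66.0 in LIF and 110 to 111.4 in butyrate. limma's lmFit and eBayes tested the 4 within-array log2 ratios against 0, with Benjamini-Hochberg adjustment over 25673 probes. Levels come from loess and then Aquantile, and a bound sets the brighter group's mean against the dim group's detection floor. The fit takes the array as the block, since same-numbered samples share an array. As a check, deviations from group means correlated at 0.289 to 0.364 between same-numbered samples and at -0.206 to -0.035 between others. Whether cultures were paired as well is not shown by this. All arrays lay on 1 slide, so no batch could be tested.

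Probes were named through the accession (22951), symbol (6659) or synonym (3109) in the RefSeq table of GRCm38.p6, while 8455 have only the array's own name. Members and lists were chosen with earlier results of these data known. Every member probe is reported, and from each other list up to 4 genes with the largest mean ratio that passed with 1 sign on 4 arrays, plus the 4 core factors. A gene of those lists stands for its brightest tested probe. The steps were tested on simulated data. Alternatives were other background corrections, scalings, filters, variance models and units of test, fits with no replicate block or a random one, each replicate left out, the scanner's ratio and the authors' table. The plots used matplotlib 3.10.9 (Python 3.11.15).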

Additional observations from a re-analysis of the deposited data

Results flagged for a closer look

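In 3 of 51 sets of 4 values for the member probes, 1 array lay far from the other arrays by Dixon's criterion, which chance passes in about 1 of 20 sets. On the Zfp42 probe A_51_P413376 the LIF level of array 1 was 15.12, with the others at 15.26 to 15.29. On the Zfp42 probe A_52_P629849 the butyrate level of array 4 was 14.51, with the others at 14.65 to 14.68. On the dimmest Tfcp2l1 probe, A_52_P516473, the ratio of array 2 was -0.17, with the others at -0.55 to -0.51.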

How the results depend on the processing

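Over 18 alternatives, 283 of 294 values of the member probes kept their side of the threshold with no called direction turned, 7 no longer passed, 1 passed in addition and 3 reversed. The sign changed in 4 values, all with median centring, to 0.27 for the brighter Klf5 probe, 0.27 and 0.29 for the Zfp42 probes, and -0.03 for the dimmer Klf5 probe, which passed on neither scale. That setting left 8 member probes lower and 1 higher (14 and 2 with loess), 1245 of all tested probes lower (8346) and 17 genes of the other lists lower (40). Counting the brightest probe of each gene gave 8 members lower and 1 higher, and 5012 genes lower and 6176 higher overall (10193 probes higher with loess). The strict filter on dim probes left 1 member probe higher. Leaving out each replicate gave 13 to 14 member probes lower and 2 to 3 higher. The third higher probe is the dimmer Klf5 probe without replicate 4 (0.12, limma adjusted p = 0.0488). With no replicate block, 14 member probes were lower and 2 higher, with 8050 of all tested probes lower and 9987 higher, and the block changed no other call on a member. Ratios of dim probes depended on the background step: the Tfcp2l1 probe A_52_P63232 read -0.56 with an offset of 50 and -0.83 with an offset of 16. Over all alternatives this probe ran from -2.02 to -0.40, and the dimmest Tfcp2l1 probe from -3.65 to -0.40. The dimmer Esrrb probe ran from -0.88 to -0.09 and the dimmer Tbx3 probe from 0.05 to 2.54. The counts and sums without saturated probes were chosen after seeing the data.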
